A study of Mus musculus with 30 samples.

Results

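Chemokine ligands are small secreted or membrane-held proteins that draw leukocytes into tissue. The ligands examined here were all genes of the deposited count tables whose symbols name a CC or CXC chemokine (Ccl or Cxcl with a number), together with Cx3cl1, Xcl1, Pf4 and Ppbp, which gave 42 of 26264 listed genes. Total RNA of the tibialis anterior, a shin muscle, was sequenced in mice of both sexes. In each sex, muscle was collected at 4, 7, 11 and 15 days after volumetric muscle loss (VML), the removal of a block of muscle. Muscle labelled uninjured was also collected in each sex. Each of the 10 groups held 3 libraries. The sources used here do not give strain, age, defect size or whether each library came from a different animal, so p-values measure the spread between these libraries.

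Each chemokine binds one or a few G protein-coupled receptors on passing leukocytes, and the ligands are commonly grouped by that receptor. After muscle injury, ligands of Cxcr2 are known to draw neutrophils, ligands of Ccr2 to draw inflammatory monocytes from blood, and interferon-inducible ligands of Cxcr3 to draw T and NK cells. Other members are made without injury: Cxcl12 by stromal and endothelial cells, Cxcl14 by many epithelial and stromal tissues, and Ccl11 by fibroblasts among other cells.

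Total counts ranged over 13089999 to 57277336 per library, and the members together took 4844 to 86775 counts. Levels are given as CPM, counts scaled to a fixed library total, scaled with TMM factors; changes are given as log2 fold changes ± SE from edgeR's quasi-likelihood fit of all 30 libraries. A change was called at an adjusted p under 0.05 over the 17136 genes tested (Benjamini-Hochberg). The mean TMM factor was 0.527 for uninjured libraries, 1.30 for those of day 4, 1.19 for day 7, 1.16 for day 11 and 1.08 for day 15. The median gene then lay at 0.17, 0.24, 0.32 and 0.26 on the log2 scale against uninjured muscle at the 4 days, and at 1.47, 1.42, 1.46 and 1.30 when library size alone was used, with 54.8, 58.1, 59.0 and 57.6% of calls higher under TMM and 89.5, 91.3, 90.1 and 89.8% under library size alone. Muscle fibre markers matched the labelled tissue: all 6 had counts, and their summed level was 7071 to 101431 CPM in injured libraries and 245171 to 349811 CPM in uninjured ones. The library labelled female day 11 replicate 3 held the Y-linked Ddx3y at 57.4 CPM and Xist at 0.109 CPM and was kept under its label.

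Of the 42 members, 32 had enough counts to be tested. At day 4, 23 members were higher and 5 lower than in uninjured muscle, where 40.1% of all tested genes were called higher and 33% lower. At day 7 there were 21 higher and 4 lower (41.6% and 29.9% of all genes). At day 11 there were 23 and 3 (42.7% and 29.7%), and at day 15 there were 24 and 1 (39.7% and 29.3%). The median log2 fold change of the 32 tested members was 4.79, 3.26, 3.46 and 3.07 at the 4 days, or 4.21, 2.96, 3.26 and 2.61 with near-absent uninjured genes set at their lower bounds, against the all-gene medians above. The filter passed some members only through the groups in which they were high, so these figures do not describe all 42. In 20 of the 32, every day 4 library lay above every uninjured one, and in 3 every one lay below (31% and 25.9% of all genes). Such separation above and below held for 17 and 2 members at day 7 (24.9% and 19.3% of all genes), 16 and 1 at day 11 (25.8% and 20.5%) and 14 and 0 at day 15 (24.1% and 21.1%). The highest median among the injured days fell at day 4 in 17 members, day 7 in 2, day 11 in 3 and day 15 in 10. The same split was not made over all genes, so it cannot be called particular to the members. In whole muscle, fewer cells of a type and less RNA per cell cannot be told apart.

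**Figure D1:**
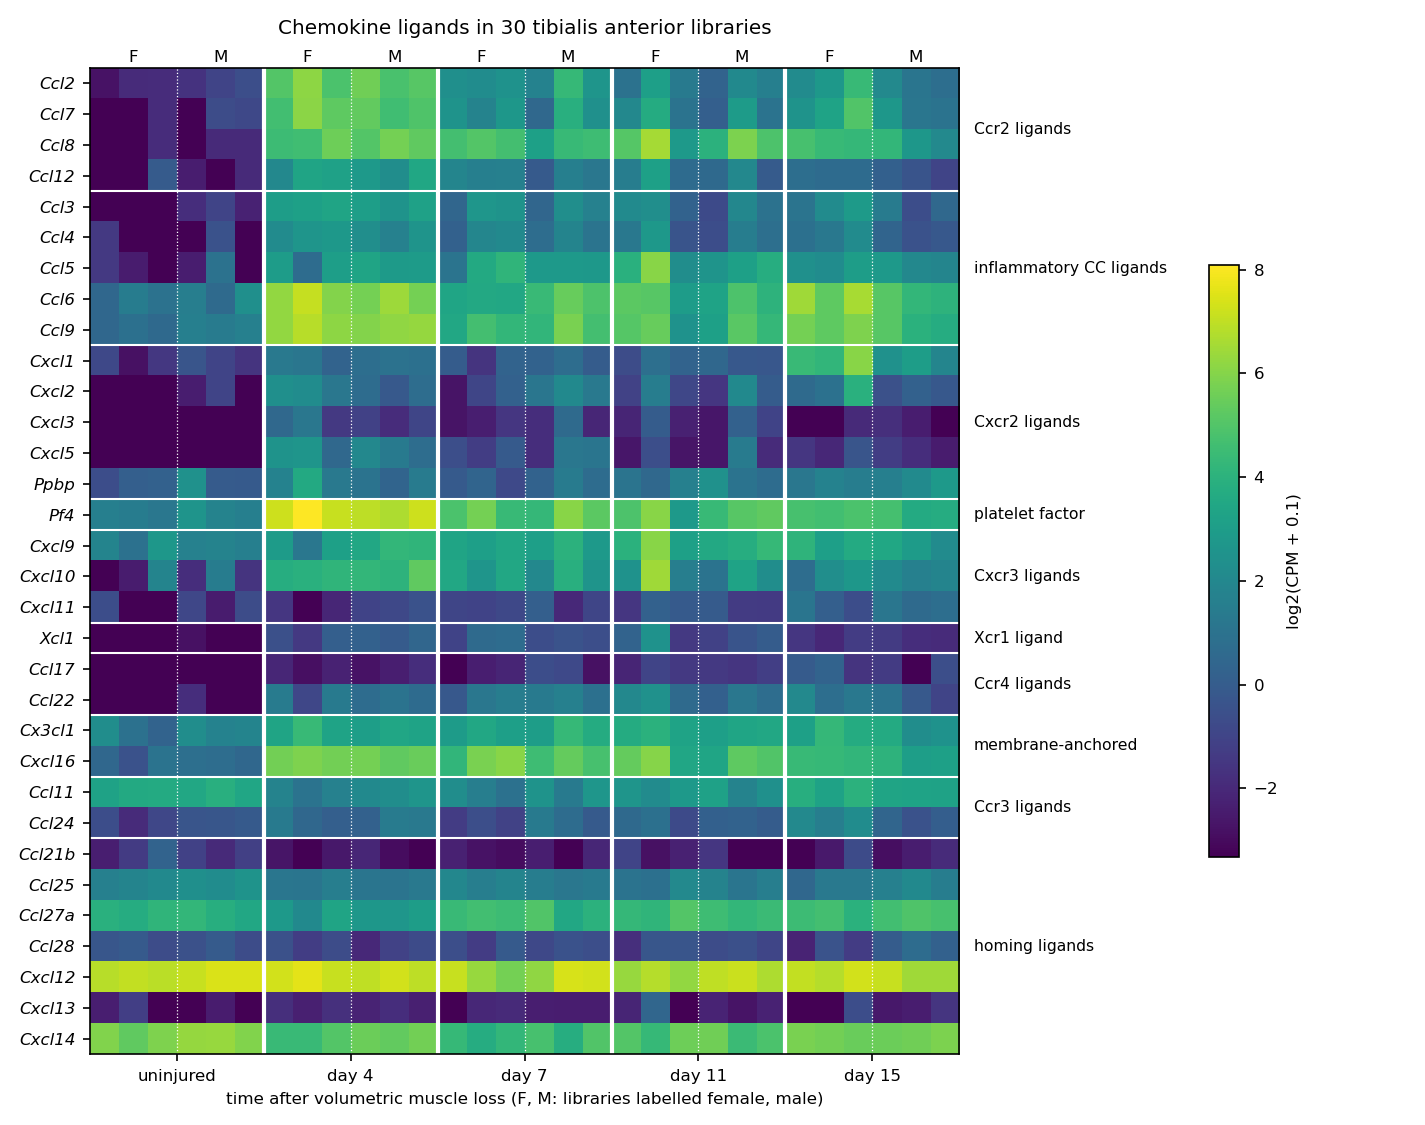
Level of the 32 tested chemokine ligands (rows, grouped by receptor or role) in each of the 30 libraries (columns, grouped by time and labelled sex), as log2(CPM + 0.1). Ligands of Ccr2 and the group of Ccl3, Ccl4, Ccl5, Ccl6 and Ccl9 have lighter cells (higher levels) at day 4 than in uninjured muscle, while Cxcl12 and Cxcl14 are light at every time.

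Per length of annotated exons, the ligand repertoire of injured and uninjured muscle was led by different genes. At day 4 the highest median levels were those of Pf4 at 206 CPM per kb, Ccl8 at 70.5, Ccl6 at 47.7, Ccl7 at 43.6 and Ccl2 at 41.6. In uninjured muscle they were those of Cxcl14 at 33.0 CPM per kb, Cxcl12 at 19.1, Ccl11 at 10.8 and Ccl27a at 9.47. At day 15 Ccl8 and Pf4, at 37.1 and 36.8 CPM per kb, still led, followed by Cxcl14 at 26.9. By median CPM, without regard to length, Cxcl12 led the members at every time. Its medians were 137 CPM in uninjured muscle and 147, 111, 109 and 121 CPM at the 4 days, with Pf4 at 144 at day 4. Annotated exons total 7160 bases in Cxcl12, 700 in Pf4 and 511 in Ccl8, so the order depends on the division by length. These ranks are a description, without a test between genes.

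All 4 ligands of Ccr2, the receptor by which inflammatory monocytes enter tissue, were higher than in uninjured muscle at each of the 4 days. Ccl2, the best known monocyte attractant, stood at 28.0, 33.8 and 71.2 CPM (lowest, median and highest of 6 libraries) at day 4, against 0.0460, 0.199 and 0.572 CPM in uninjured muscle. The lowest day 4 library was far above the highest uninjured one. The log2 fold change was 7.45 ± 0.64 (adjusted p = 1.34e-10, edgeR), and the ratio of pooled counts was 154-fold, with a 95% counting interval of 97.2 to 246. Ccl7, a close relative that binds the same receptor, had 23.6, 34.9 and 68.8 CPM at day 4 against 0, 0.0879 and 0.521 CPM in uninjured muscle, a ratio of 192 (113 to 332). Ccl8, which in the mouse also acts on Ccr8, had 22.7, 36.0 and 52.5 CPM at day 4 against 0, 0.0763 and 0.176 CPM in uninjured muscle, a ratio of 420 (193 to 1146). Ccl12, a mouse ligand of Ccr2, had 3.90, 8.19 and 11.0 CPM at day 4 against 0, 0.0443 and 0.879 CPM in uninjured muscle, a ratio of 42.1 (24.6 to 79.3). Most of its uninjured counts were in female replicate 3, without which its log2 fold change was 8.90 in place of 5.61. Intervals throughout cover counting error on read pairs only.

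The 4 ligands then followed different courses. Ccl2 fell to a median of 5.23 CPM at day 7, 2.54 ± 0.42 on the log2 scale below day 4 (adjusted p = 0.000347), with every day 7 library below every day 4 one. Ccl7 fell by 2.63 ± 0.56 and Ccl12 by 1.59 ± 0.51 over the same interval. Ccl8 did not pass the test (-0.70 ± 0.44, adjusted p = 0.216, edgeR), and its medians were 24.2, 31.6 and 18.9 CPM at days 7, 11 and 15. By day 15 all 4 were below day 4, Ccl8 by the least (-1.29 ± 0.44) and Ccl2 by the most (-2.96 ± 0.43). At day 11 the ratio to uninjured muscle was 504 (232 to 1375) for Ccl8 and 14.0 (8.74 to 22.6) for Ccl2. The summed level of 6 macrophage markers, all with counts at each time, spanned 27.6-47.1 CPM in uninjured muscle, 2198-3246 at day 4, 554-2127 at day 7, 173-2016 at day 11 and 227-1088 at day 15. That of 4 monocyte markers was 103 to 120 CPM at day 4, 20.6 to 52.0 at day 7 and 1.21 to 3.55 in uninjured muscle. Their part in the levels of the ligands was not tested.

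**Figure D2:**
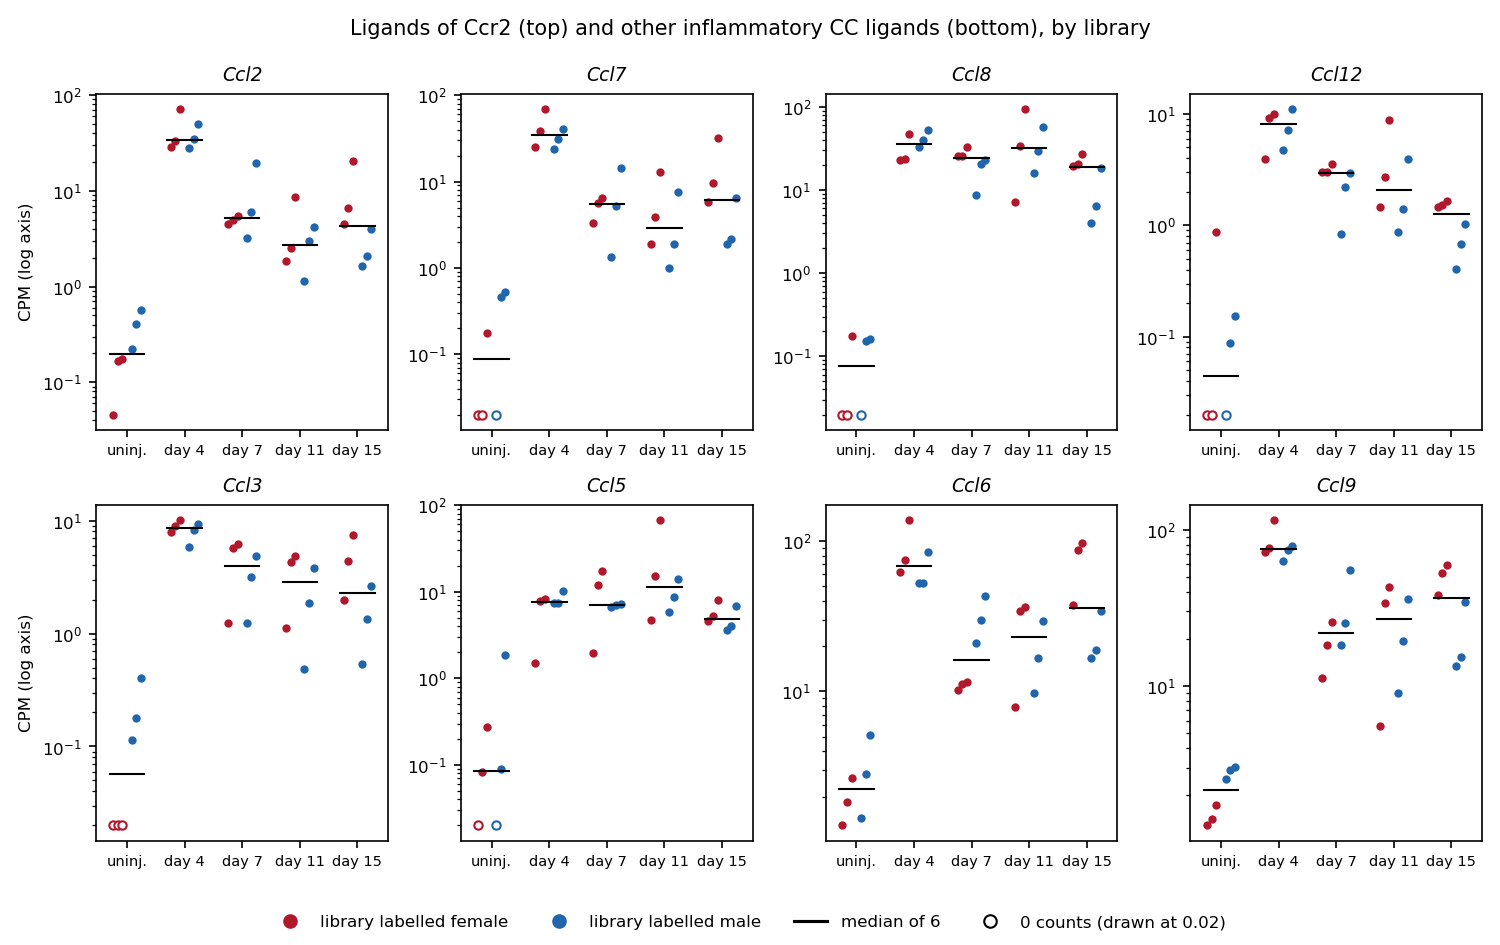
CPM on a log axis of Ccl2, Ccl7, Ccl8 and Ccl12 (top) and Ccl3, Ccl5, Ccl6 and Ccl9 (bottom) in each library, by time and labelled sex. Ccl2 has a median of 33.8 CPM at day 4 and 5.23 at day 7, whereas Ccl8 keeps medians of 36.0 and 24.2, and Ccl5 is the ligand here with its highest median, 11.3 CPM, at day 11.

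The 5 inflammatory CC ligands Ccl3, Ccl4, Ccl5, Ccl6 and Ccl9 were likewise higher at every day. Ccl9, a mouse ligand of Ccr1, had 62.8, 75.1 and 115 CPM at day 4 against 1.29, 2.16 and 3.05 CPM in uninjured muscle (log2 fold change 5.27 ± 0.39). Ccl6, another rodent ligand of Ccr1, had 52.4, 68.7 and 137 CPM at day 4 against 1.29, 2.26 and 5.11 CPM in uninjured muscle (4.95 ± 0.37). Neither gene's groups overlapped. Both fell at day 7, Ccl9 by 1.68 ± 0.36 and Ccl6 by 2.04 ± 0.35, and both stood at medians of 36.3 and 36.1 CPM at day 15. Ccl3, a macrophage product that binds Ccr1, had 5.77, 8.58 and 10.1 CPM at day 4 against 0, 0.0572 and 0.401 CPM in uninjured muscle, a ratio of 70.0 (34.7 to 145), with no counts in uninjured females. Ccl4, a close relative of Ccl3, had 3.18, 5.33 and 6.62 CPM at day 4 against 0, 0 and 0.642 CPM in uninjured muscle, where 2 libraries held all its counts, a ratio of 33.4 (18.6 to 67.2).

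Ccl5, which T cells, NK cells and macrophages can make, differed from the other 4 in its course. It had 1.52, 7.68 and 10.1 CPM at day 4, 1.98, 7.08 and 17.4 at day 7, 4.66, 11.3 and 67.1 at day 11 and 3.57, 4.88 and 8.03 at day 15, against 0, 0.0860 and 1.84 CPM in uninjured muscle. The uninjured value of 1.84 was that of male replicate 2, which held most of the uninjured counts, and without it the log2 fold change at day 4 was 6.58 in place of 4.64. The difference of day 7 from day 4 was 0.29 ± 0.58 and that of day 11 from day 7 was 0.96 ± 0.58, and neither passed the test. The value of 67.1 CPM at day 11 was female replicate 2, without which the log2 fold change at day 11 was 5.11 in place of 5.89.

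The 5 tested ligands of Cxcr2, the receptor that brings neutrophils to a wound, were all higher at day 4. They parted afterwards. Cxcl5 and Cxcl3 had no counts in any uninjured library. Cxcl5 reached 1.36, 3.16 and 6.04 CPM at day 4, at least 87.4-fold above the floor of 6 counts over the uninjured group, and 0.0811, 0.213 and 0.699 CPM at day 15, at least 6.74-fold above it. Cxcl3 had 0.170, 0.393 and 2.21 CPM at day 4, at least 20.6-fold above that floor. Cxcl2 had 0.803, 1.88 and 5.08 CPM at day 4 against 0, 0 and 0.401 CPM in uninjured muscle, a ratio of 32.5 (14.8 to 88.8), and was called higher at all 4 days.

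At days 7 and 11 the medians of Cxcl1 and Cxcl5 were both below those of day 4. Cxcl1, the mouse counterpart of the GRO chemokines, then had its highest median at day 15. It had 1.13, 1.82 and 2.36 CPM at day 4, against 0.0417, 0.332 and 0.709 CPM in uninjured muscle (2.44 ± 0.46). At day 15 it had 3.61, 12.9 and 67.2 CPM, so that every day 15 library lay above every library of the other times. The change from uninjured muscle was 5.40 ± 0.46 at day 15 (adjusted p = 1.52e-09, edgeR), after 1.54 ± 0.47 at day 7 and 1.63 ± 0.47 at day 11. Day 15 exceeded day 11 by 3.76 ± 0.39 (adjusted p = 4.86e-06) and day 4 by 2.95 ± 0.37 (adjusted p = 2.11e-06). Over that interval Cxcl5 fell by 3.63 ± 0.77 and Cxcl3 by 3.04 ± 1.01, while Cxcl2 stood at -0.03 ± 0.67 and did not pass the test. The highest value, 67.2 CPM, was female day 15 replicate 3. Without that library Cxcl1 still exceeded day 11 by 3.33 and uninjured muscle by 4.96. The same library held Cxcl2 at 14.9 CPM, against 0.614 to 1.83 CPM in the other 5 of day 15.

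**Figure D3:**
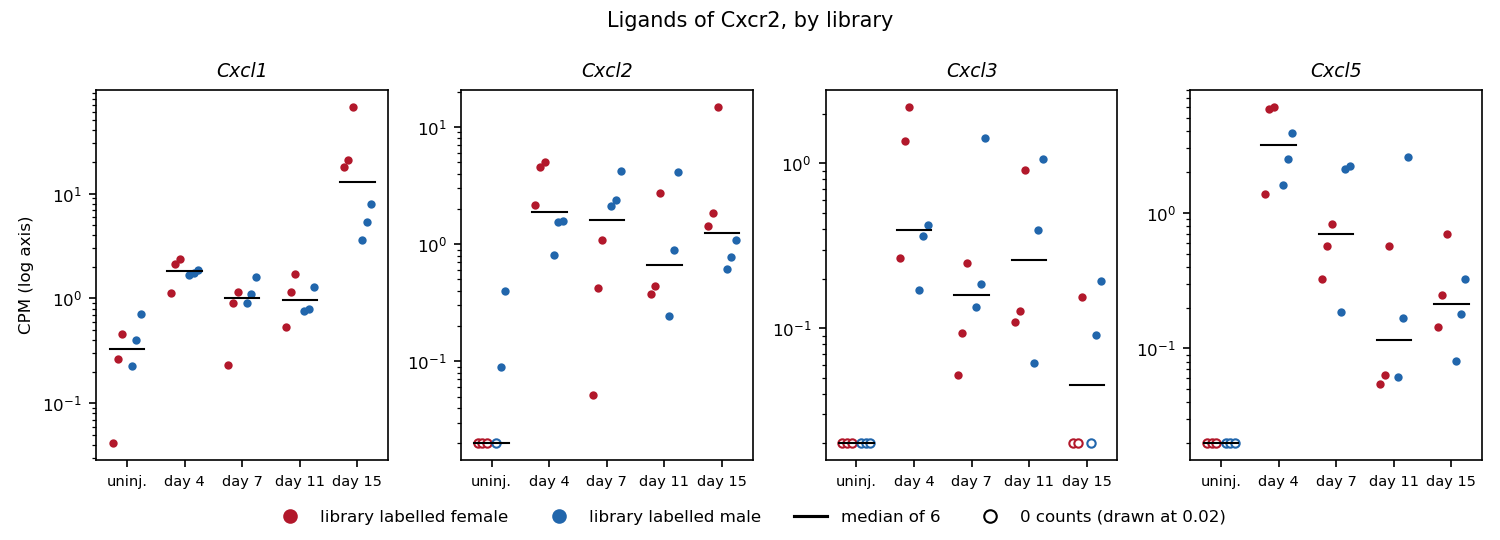
CPM on a log axis of Cxcl1, Cxcl2, Cxcl3 and Cxcl5 in each library, by time and labelled sex, with open circles for libraries without counts. Cxcl1 is highest at day 15, with a median of 12.9 CPM, and Cxcl5 at day 4, with a median of 3.16 CPM.

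The 6 neutrophil markers all had counts at each time, and their sum spanned 1.22-2.41 CPM in uninjured muscle, 43.7-68.4 at day 4, 18.7-44.1 at day 7, 10.5-36.8 at day 11 and 5.68-50.2 at day 15. The value of 50.2 was female day 15 replicate 3, and the other 5 day 15 libraries lay between 5.68 and 12.6 CPM. The 6 markers were divided: Retnlg was called at no day, while S100a8, S100a9, Csf3r and Mmp8 were still called higher at day 15 (3.90, 1.9, 2.85 and 3.60). Cxcr2 itself had 0.566, 0.873 and 1.54 CPM at day 4 against 0, 0.0401 and 0.250 CPM in uninjured muscle (3.93 ± 1.02). At day 15 it had 0, 0.0729 and 1.40 CPM and was not called (1.50 ± 1.15). Their relation to Cxcl1 was not tested.

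Cxcl1, Cxcl2 and Cxcl3 lie together on chromosome 5, and their promoters are shown because a nuclear factor kappa B (NF-kB) element just before the start is a textbook feature of these genes. RefSeq promoter windows (GRCm38.p6, 250 bases before to 50 after the start) were at hand for 30 of the 42 members, Cxcl5 not among them. The NF-kB consensus, searched on both strands, matched in 7 members (Ccl9, Ccl20, Ccl27a, Cxcl1, Cxcl2, Cxcl3 and Cxcl10) and in 4.51% of all 32851 windows. In Cxcl1, Cxcl2 and Cxcl3 the matched letters were the same, GGGAATTTCC, which 29 windows held on either strand (0.0883%). In these 3 genes the match on the other strand overlaps it by all but 1 base. The motifs were chosen after the sequences had been seen, and a match is a description, not a site or a cause. Each stretch below reads 5′ to 3′ on the gene's strand, with the motif in capitals. They lie at chr5:90891164-90891193 (Cxcl1), chr5:90903792-90903821 (Cxcl2) and chr5:90786018-90786047 (Cxcl3), all on the plus strand of GRCm38.p6.
Cxcl1: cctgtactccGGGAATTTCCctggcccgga
Cxcl2: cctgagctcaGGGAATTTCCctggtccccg
Cxcl3: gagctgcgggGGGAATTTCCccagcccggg
The motif starts 71, 97 and 73 bases before the start of Cxcl1, Cxcl2 and Cxcl3. The 3 genes had different courses above, with the highest median of Cxcl1 at day 15 and that of Cxcl3 at day 4.

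Pf4, platelet factor 4, a heparin-binding chemokine best known from platelet granules, had the highest day 4 level of all members per length of exon, and by median CPM stood next to Cxcl12. It had 101, 144 and 272 CPM at day 4 against 2.20, 2.92 and 5.94 CPM in uninjured muscle, and the groups did not overlap (5.56 ± 0.38, adjusted p = 7.94e-11). It fell by 2.04 ± 0.36 at day 7 and stood at 12.6, 25.7 and 28.8 CPM at day 15, still 2.74 ± 0.38 above uninjured muscle. Ppbp, the precursor of another platelet chemokine and a ligand of Cxcr2, had 1.19, 2.46 and 12.0 CPM at day 4 against 0.551, 0.941 and 5.32 CPM in uninjured muscle, and these groups overlapped. Its change at day 4 was 1.23 ± 0.46 (adjusted p = 0.0204, edgeR). That call was lost without any of 5 single libraries, at adjusted p of 0.0512 to 0.175, and the change was 0.67 without female day 4 replicate 2 and 1.95 without male uninjured replicate 1. It was not called at day 7 or day 11 and was 1.33 ± 0.47 higher at day 15.

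The markers of platelets and megakaryocytes were divided at day 4. Of the 6, all with counts at each time, Gp5, Treml1 and Itga2b were called higher at day 4 (2.72 ± 0.48, 2.11 ± 0.55 and 0.92 ± 0.25), Gp1ba was called lower (-2.70 ± 0.23), Gp9 was not called (0.35 ± 0.72) and Gp6 was not tested. Gp1ba, at 1.64 to 3.69 CPM at day 4 against 14.4 to 22.7 CPM in uninjured muscle, made up most of the uninjured sum. The sum was 7.58 to 13.0 CPM at day 4, against 16.4 to 25.4 CPM in uninjured muscle, and 21.8 to 26.4 CPM at day 15. The sum of the 6 macrophage markers given above was highest at day 4. Neither was tested as a source of Pf4.

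**Figure D4:**
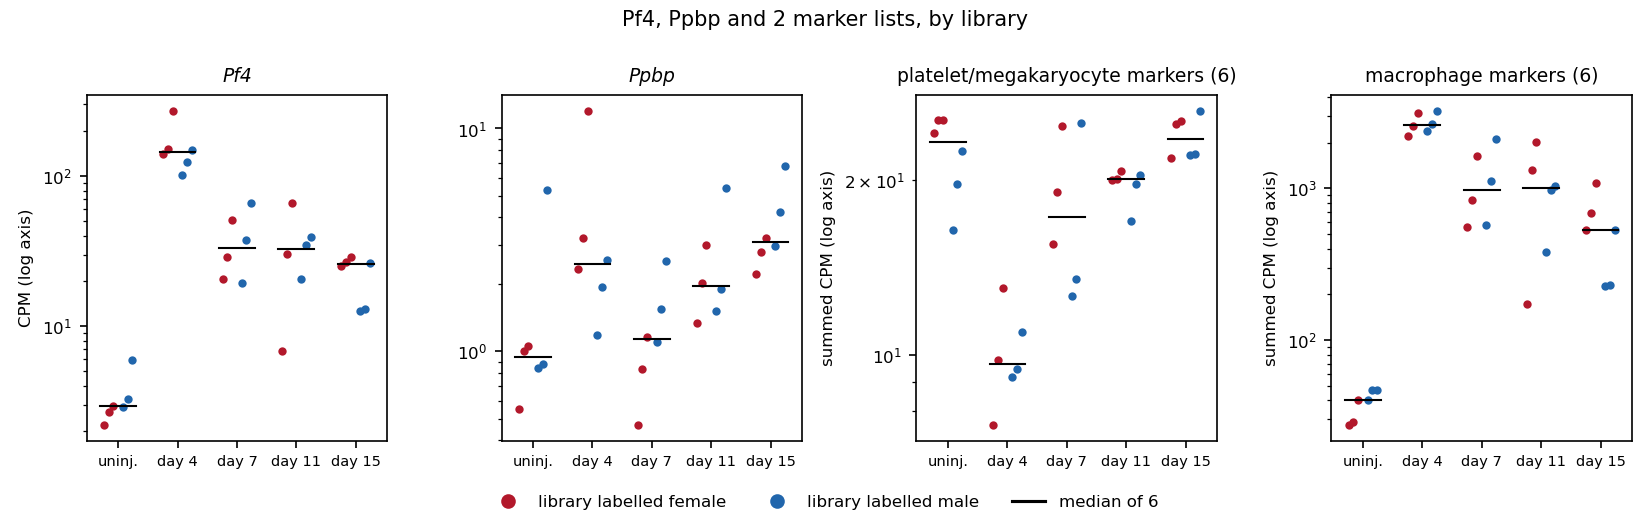
CPM of Pf4 and Ppbp, and summed CPM of 6 platelet and megakaryocyte markers and of 6 macrophage markers, in each library by time and labelled sex, all on log axes. Pf4 and the macrophage sum are highest at day 4 (medians 144 and 2613 CPM), where the platelet and megakaryocyte sum, most of which is Gp1ba in uninjured muscle, has a median of 9.64 CPM although Gp5, Treml1 and Itga2b were called higher.

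The interferon-inducible ligands of Cxcr3, a receptor of activated T and NK cells, were of 2 kinds. Cxcl9 and Cxcl10 were called higher at all 4 days, and Cxcl11 only met the threshold at day 15. Cxcl10 had 13.5, 17.1 and 39.7 CPM at day 4 against 0, 0.203 and 3.47 CPM in uninjured muscle, and the groups did not overlap. Its uninjured counts sat mostly in male replicate 2 and female replicate 3, so its fold moves with them: the change at day 4 was 4.15 ± 0.78, and 6.49 without the second of these. Its medians were 8.72, 5.07 and 3.84 CPM at days 7, 11 and 15, and day 15 lay 2.31 ± 0.72 below day 4. The call at day 15 (1.84 ± 0.79, adjusted p = 0.0436, edgeR) was lost without any of 16 single libraries, with adjusted p from 0.0524 to 0.0994.

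Cxcl9, which depends most on interferon gamma, had 8.94, 14.6 and 65.8 CPM at day 11 against 1.83, 3.19 and 6.51 CPM in uninjured muscle (2.61 ± 0.40, or 1.96 without female day 11 replicate 2). At days 4, 7 and 15 it was 1.50, 1.53 and 1.50 higher. Cxcl11 had 0.543, 1.55 and 2.10 CPM at day 15 against 0, 0.262 and 0.551 CPM in uninjured muscle (2.49 ± 0.70), and exceeded day 4 by 2.51 ± 0.64. Without female uninjured replicate 1, which held all counts of its sex, Cxcl11 was also called at days 7 and 11 (3.79 and 4.15). An annotated pseudogene lies on the opposite strand within Cxcl11, and whether counting used strand is not stated.

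The promoter window of Cxcl10 matched the consensus of the element that interferon regulatory factors bind, which occurred in 0.350% of all windows on either strand and, among members, in those of Cxcl10 and Ccl19. The stretch is shown for that match, in capitals, and lies on the minus strand at chr5:92349081-92349112 of GRCm38.p6. The match starts 213 bases before the start.
Cxcl10: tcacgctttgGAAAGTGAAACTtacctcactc

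Female day 11 replicate 2 stood above the other 5 day 11 libraries in Ccl5 (67.1 CPM against 4.66 to 15.2), Cxcl9 (65.8 against 20.01 at most), Cxcl10 (89.0 against 1.96 to 9.64), Ccl4 (6.61 against 0.550 to 2.75) and Xcl1 (5.46 against 0.273 to 1.14). In the same library 5 T cell markers summed to 53.9 CPM against 4.69 to 23.7, and 4 NK cell markers to 25.9 CPM against 1.58 to 7.36. All of these markers had counts at day 11. Their part in the ligand levels was not tested.

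Xcl1, a ligand of Xcr1 on cross-presenting dendritic cells that NK and T cells make, had 1 count in all uninjured libraries. It had 0.270, 0.923 and 1.27 CPM at day 4 against 0, 0 and 0.0443 CPM in uninjured muscle, a ratio of 115 (10.2 to 2299), and every injured library lay above every uninjured one at each day. It fell at day 15, to 0.143, 0.213 and 0.310 CPM, 2.45 ± 0.57 below day 11 (adjusted p = 0.0155, edgeR). Without female day 11 replicate 2 this difference was -1.59 (adjusted p = 0.0998), and without male day 11 replicate 3 it was -2.32 (adjusted p = 0.0503). A transcript annotated on the opposite strand overlaps Xcl1. Its own level was 0.954 to 2.46 CPM in uninjured muscle, where Xcl1 was nearly absent.

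The 2 tested ligands of Ccr4, a receptor of regulatory and type 2 helper T cells, were higher at all 4 days. Ccl22 had 0.442, 1.72 and 2.55 CPM at day 4 and 0.405, 1.80 and 4.07 CPM at day 15, against 0, 0 and 0.177 CPM in uninjured muscle, where 1 library held all 4 counts. Its ratio was 59.7 (16.4 to 494) at day 4 and 62.1 (16.9 to 519) at day 15, and no step between days passed the test. Ccl17 had no uninjured counts. Its levels were 0.0368, 0.105 and 0.180 CPM at day 4 and 0, 0.429 and 1.15 CPM at day 15, at least 2.29-fold and at least 12.0-fold above the floor, and day 15 exceeded day 4 by 2.20 ± 0.68. Its calls at days 4 and 7 were lost when all libraries were thinned to the smallest total.

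The membrane-anchored ligands, which also act as adhesion molecules, were higher at all 4 days. Cxcl16, the ligand of Cxcr6, had 40.0, 50.7 and 58.5 CPM at day 4 against a median of 1.45 and a highest value of 1.93 CPM in uninjured muscle (5.14 ± 0.38), and 8.25, 17.5 and 20.5 CPM at day 15 (3.41 ± 0.38). Zmynd15 overlaps it on the opposite strand and was itself 4.28 higher at day 4, so reads of the pair may not have been told apart. Cx3cl1, which holds monocytes that carry Cx3cr1, had 8.36, 9.88 and 20.3 CPM at day 4 against 1.14, 3.32 and 4.79 CPM in uninjured muscle (1.85 ± 0.30). Its changes at days 7, 11 and 15 were 1.83, 1.85 and 1.70, and no step between days exceeded 0.15 on the log2 scale or passed the test.

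Among the ligands most abundant in resting muscle, Ccl11 and Cxcl14 fell after injury and Cxcl12 was called at no day. Ccl11, eotaxin, an attractant of eosinophils through Ccr3, had 1.94, 3.75 and 6.03 CPM at day 4 against 9.56, 11.7 and 14.5 CPM in uninjured muscle, without overlap (-1.66 ± 0.25, adjusted p = 3.02e-06). Against uninjured muscle it was 1.60 ± 0.25 lower at day 7 and 1.01 ± 0.25 lower at day 11, with medians of 3.76 and 5.60 CPM. At day 15 it had 9.29, 9.99 and 15.8 CPM, and was not called against uninjured muscle (-0.06 ± 0.25), with every day 15 library above every day 11 one (0.96 ± 0.25, adjusted p = 0.0323). That call was lost without any of 8 single libraries, at adjusted p of 0.0502 to 0.107. Scaled by library size alone, Ccl11 kept its sign at days 4 and 7 (-0.36, adjusted p = 0.126, and -0.50, adjusted p = 0.0372) and was above uninjured muscle at days 11 and 15 (0.12 and 0.98).

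Ccl24, a second ligand of Ccr3, ran differently: it was 1.73 ± 0.35 higher at day 4, 1.04 ± 0.36 at day 11 and 1.82 ± 0.36 at day 15, and not called at day 7 (0.58 ± 0.36). Its levels were 0.998, 1.83 and 2.61 CPM at day 4 against 0.167, 0.630 and 0.840 CPM in uninjured muscle. Of 4 eosinophil markers, Siglecf and Ccr3 were called higher at days 4, 7 and 11, Prg2 at days 7, 11 and 15, and Epx was not tested. Of the 4, all had counts at day 4 and 3 in uninjured muscle, and they summed to 1.23 to 2.10 CPM at day 4 and 0 to 0.382 CPM in uninjured muscle, and Epx was at 0 in every library of day 15 and of uninjured muscle.

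Cxcl14, a ligand of tissue at rest, had 20.9, 36.7 and 49.7 CPM at day 4 and 13.1, 19.2 and 32.1 CPM at day 7, against 39.6, 60.2 and 80.6 CPM in uninjured muscle. Against uninjured muscle it was lower by 0.88 ± 0.22 at day 4, 1.61 ± 0.22 at day 7 and 0.91 ± 0.22 at day 11. It was not called at day 15 (-0.31 ± 0.22). With library size alone it was higher than in uninjured muscle at days 4, 11 and 15 (0.42, 0.23 and 0.74) and lower at day 7 (-0.46). Ccl25, which guides thymocytes and gut T cells through Ccr9, had 1.99, 2.10 and 2.86 CPM at day 4 against 3.03, 4.35 and 5.80 CPM in uninjured muscle. Against uninjured muscle it was lower by 0.93, 0.56, 0.69 and 0.73 at the 4 days. Each of these changes turned positive with library size alone (0.36, 0.60, 0.46 and 0.29). Elavl1, on the opposite strand of Ccl25, stood at 51.5 to 77.7 CPM at day 4 and 45.6 to 71.4 CPM in uninjured muscle.

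Ccl27a, a skin-homing ligand of Ccr10, reversed between days. It had 4.21, 6.67 and 10.1 CPM at day 4 against 11.5, 14.7 and 18.9 CPM in uninjured muscle, all below (-1.11 ± 0.22). Every day 7 library was above every day 4 one (1.59 ± 0.22, adjusted p = 7.25e-05, edgeR), and Ccl27a was called higher than uninjured muscle at day 11 (0.56 ± 0.22) and day 15 (0.67 ± 0.22). The day 11 call was lost without any of 8 single libraries, at adjusted p of 0.0503 to 0.166. The value moved most, to 0.35, without the library labelled female day 11 replicate 3, the highest at 32.8 CPM. The day 7 change (0.49 ± 0.22, adjusted p = 0.0517, edgeR) was called with RLE scaling (0.50, adjusted p = 0.0470) and by DESeq2 (0.50, adjusted p = 0.0432). With library size alone its change at day 4 was 0.19. Il11ra1, which overlaps Ccl27a on the opposite strand, changed by -0.49 at day 4 and was 0.68 higher at day 11 and 0.82 at day 15, and Ccl27a also has the near-identical copy Ccl27b, so its reads are uncertain.

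Cxcl12, the ligand of Cxcr4 that holds blood-forming and other progenitors in place, had 124, 147 and 195 CPM at day 4 against 116, 137 and 174 CPM in uninjured muscle. Its changes of 0.08, -0.36, -0.41 and -0.26 (each ± 0.21) did not pass the test. With library size alone they were 1.39, 0.77, 0.73 and 0.78, all called. Of the remaining homing ligands, Ccl21b, made by lymphatic endothelium for cells with Ccr7, had 0, 0.0444 and 0.135 CPM at day 4 against 0.0919, 0.318 and 1.14 CPM in uninjured muscle, with a ratio of 0.120 (0.0546 to 0.267) at day 4 and 0.145 (0.0569 to 0.326) at day 7, both called lower. With library size alone neither was among the members called lower. The 4 markers of lymphatic endothelium summed to 51.2 to 77.9 CPM at day 4 and 15.5 to 21.7 CPM in uninjured muscle. They were divided at day 4: Lyve1, Prox1 and Pdpn were called higher (1.51, 2.65 and 3.30) and Flt4 was not called (-0.38). Their relation to Ccl21b was not tested. Ccl28, a mucosal ligand of Ccr10, and Cxcl13, which draws B cells through Cxcr5, were called at no day.

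**Figure D5:**
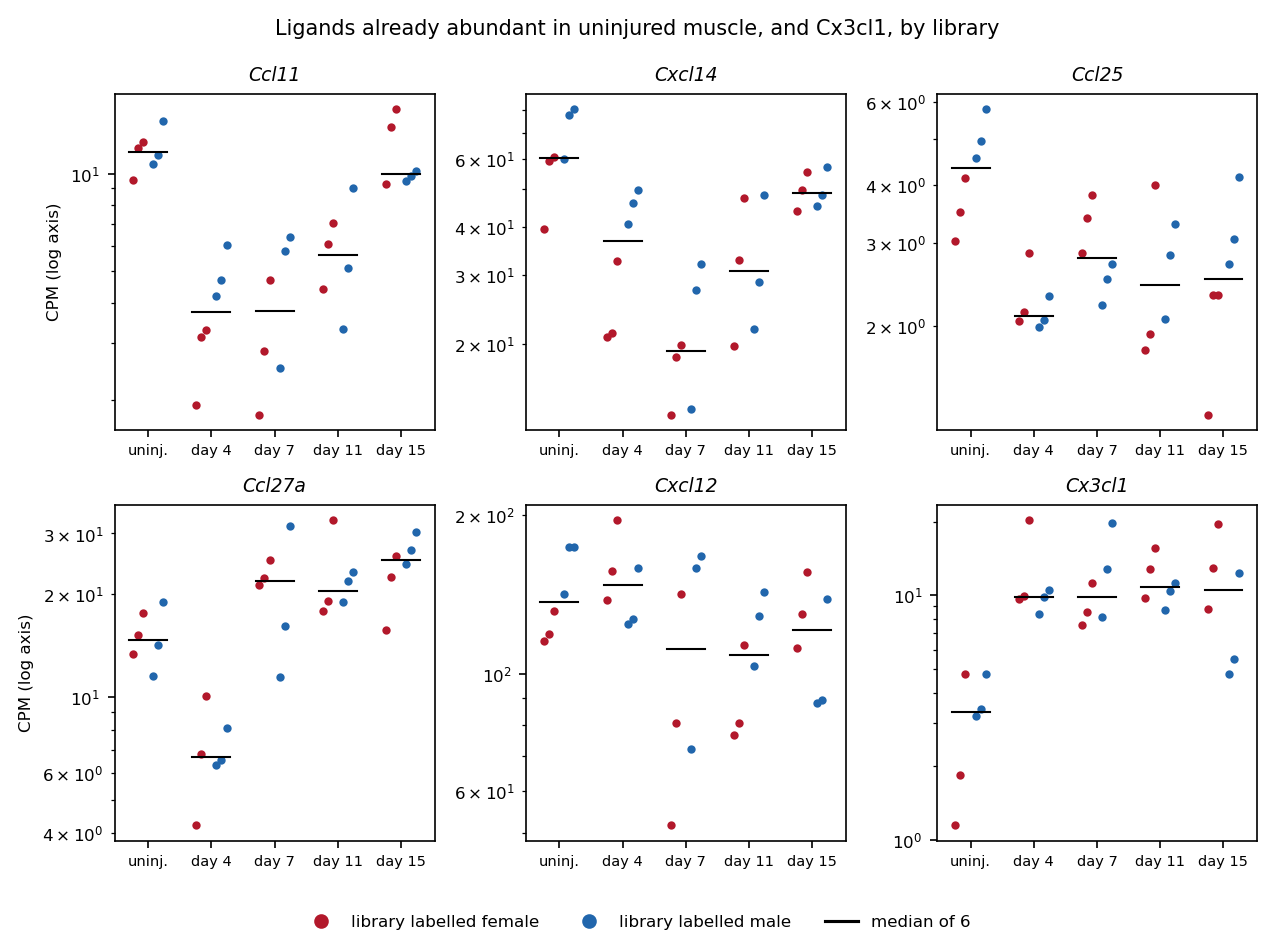
CPM on log axes of Ccl11, Cxcl14, Ccl25, Ccl27a, Cxcl12 and Cx3cl1 in each library, by time and labelled sex. Ccl11 has medians of 3.75 CPM at day 4 and 9.99 at day 15 against 11.7 in uninjured muscle, Ccl27a is lowest at day 4 with a median of 6.67 CPM, and Cx3cl1 stays near 10 CPM at all injured days.

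The other 10 members were not tested. Ccl19, Ccl21a, Ccl21c, Ccl21d, Ccl26 and Ccl27b had no counts in any library. Since Ccl21a, Ccl21b, Ccl21c and Ccl21d, and likewise Ccl27a and Ccl27b, are near-identical copies, a value of 0 for one of them may reflect how shared reads were counted. Ccl1, a ligand of Ccr8, had 10 to 27 counts at each injured day and none in uninjured muscle. Its scaled level was at least 0.706, 1.60, 2.90 and 1.61 times the uninjured floor at days 4, 7, 11 and 15. Ccl20, a ligand of Ccr6, had 23 counts at day 4, 7 at day 7 and 2 each at days 11 and 15, and none in uninjured muscle. Its bounds were 1.35 at day 4 and 0.590 at day 7. The bounds of Ccl1 at day 4 and Ccl20 at day 7 do not show a rise. Raw counts also depend on library totals, so they are no measure of change between times. Cxcl15 and Cxcl17 had at most 7 counts in any day's libraries.

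Among neighbouring days, most calls lay between day 4 and day 7. There 1 member was higher and 10 were lower at day 7, where 18.5% of all genes were called higher and 16.7% lower. No member was called between day 11 and day 7 by edgeR, against 0.0584% of all genes, 5 had an unadjusted p under 0.05, and DESeq2 called 0. The share of all genes at that unadjusted p is not reported here. Day 15 differed from day 11 in 2 members that were higher, Cxcl1 and Ccl11, and 1 that was lower, Xcl1 (2% and 2.25% of all genes). The count of lower members there was 0 without female day 11 replicate 2 or male day 11 replicate 3, and 6 without female day 11 replicate 3. At day 15, 6 members were higher and 14 lower than at day 4 (25.1% and 27% of all genes), and the 6 were Ccl11, Ccl17, Ccl27a, Cxcl1, Cxcl11 and Cxcl14.

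The sexes were compared in uninjured muscle and in their response. No member was called between uninjured females and males by edgeR, where 0.642% of all genes were, 2 had an unadjusted p under 0.05, and DESeq2 called Ccl3. Over the 4 days jointly no member's response was called by edgeR (0.035% of all genes were), with 9 at an unadjusted p under 0.05 and the lowest adjusted p, 0.105, in Ccl24. DESeq2 called Ccl6, Cxcl1 and Ccl24. At days 4, 7 and 11 alone edgeR called 0 members each (0.0467%, 0.123% and 0.0584% of all genes), with 4, 2 and 2 at an unadjusted p under 0.05, and DESeq2 called 0. In the joint and day 11 tests, female day 11 replicate 3, whose sex genes go against its label, counted as female. Leaving out each library in turn, this one included, edgeR still called 0 members jointly. For day 11 alone, a result without it is not reported here. At day 15 alone edgeR called 0 members (0.21% of all genes), 11 had an unadjusted p under 0.05, and DESeq2 called Ccl2, Ccl3, Ccl24, Cxcl1 and Cxcl2. The shares of all genes at an unadjusted p or by DESeq2 are not reported here for any of these sex tests. Those counts can therefore not be called particular to the ligands. Beside the DESeq2 calls stand the levels at day 15. Cxcl1 had 20.9, 17.9 and 67.2 CPM in the 3 female libraries of day 15 and 5.34, 8.03 and 3.61 CPM in the 3 male ones, without overlap (female minus male response 3.45 ± 0.92, adjusted p = 0.113, edgeR). Ccl24 had 4.07, 2.87 and 4.62 CPM in females and 1.23, 0.632 and 0.973 CPM in males, also without overlap (2.99 ± 0.72, adjusted p = 0.0778, edgeR). Ccl6 had 86.7, 37.8 and 96.6 CPM in females and 34.3, 18.8 and 16.7 CPM in males (2.35 ± 0.74, adjusted p = 0.184, edgeR). Ccl2 had 4.50, 6.67 and 20.4 CPM in females and 3.98, 2.07 and 1.62 CPM in males, and Cxcl2 had 1.42, 1.83 and 14.9 CPM in females and 0.614, 1.08 and 0.770 CPM in males. For both, the highest value was female replicate 3. Ccl3 had 1.97, 4.41 and 7.37 CPM in females and 2.62, 0.541 and 1.34 CPM in males, with overlap. Neither Ccl3 nor Cxcl2 had counts in uninjured females, so their fitted responses there are no measure of size. The macrophage marker sum in the same libraries was 530 to 1088 CPM in females and 227 to 534 CPM in males, and its part was not tested.

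Most tested receptors of these ligands were also higher after injury. Of 18 signalling receptors 14 were tested, and 11, 11, 10 and 9 of them were higher at days 4, 7, 11 and 15, with none called lower. Over all tested genes 40.1, 41.6, 42.7 and 39.7% were called higher and 33, 29.9, 29.7 and 29.3% lower. As with the ligands, the filter passed some receptors only through the groups in which they were high. In uninjured muscle Cxcr6 had 0 counts and Ccr3 had 2, so these figures do not describe all 18. Ccr2 had 58.7, 67.8 and 70.6 CPM at day 4 against 0.528, 0.849 and 2.60 CPM in uninjured muscle (6.02 ± 0.31). Cxcr4, the receptor of Cxcl12, had 39.8, 58.2 and 66.7 CPM at day 4 against 1.50, 3.12 and 5.93 CPM in uninjured muscle (4.10 ± 0.27). Ccr3, the receptor of Ccl11 and Ccl24, had 0.359, 0.546 and 1.03 CPM at day 4 against 0, 0 and 0.0763 CPM in uninjured muscle, and was called higher at days 4, 7 and 11.

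The 6 atypical receptors, which bind chemokines without classical signalling and often clear them, gave 1, 2, 3 and 3 higher and 1, 2, 2 and 1 lower calls at days 4, 7, 11 and 15. Of all genes, 39.7 to 42.7% were called higher and 29.3 to 33% lower at these days, so the counts say nothing particular of the group. Ccrl2, which presents chemerin, had 1.96, 5.39 and 6.25 CPM at day 4 against 11.6, 17.7 and 19.3 CPM in uninjured muscle and was lower at all 4 days (-1.77 ± 0.23 at day 4). Ackr3, a scavenger of Cxcl12, was below uninjured muscle by 1.27 ± 0.25 at day 7 and 1.24 ± 0.25 at day 11 and was at -0.00 ± 0.25 at day 15. Ackr2, a scavenger of inflammatory CC chemokines, had 0.811, 1.36 and 2.59 CPM at day 15 against 0.0763, 0.226 and 0.532 CPM in uninjured muscle (2.55 ± 0.40), and was not called at day 4 (0.19 ± 0.41). Ackr4, which takes up the ligands of Ccr7 and Ccr9, was 3.70 ± 0.45 higher at day 11.

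Of 18 listed inducers and regulators of chemokine transcription 15 were tested, and 14, 13, 12 and 12 were higher at the 4 days. The shares of all genes called higher were 40.1, 41.6, 42.7 and 39.7%. Here too the filter passed some genes only through injured groups, such as Ifng with 0 uninjured counts, so these figures do not describe all 18. At day 15, the time of the highest Cxcl1, the NF-kB target and inhibitor Nfkbia had 58.1, 76.8 and 189 CPM against 33.0, 40.0 and 66.4 CPM in uninjured muscle (1.01 ± 0.18), and it was called at no earlier day. Nfkbiz, a nuclear cofactor of NF-kB, was 2.14, 1.93, 1.54 and 2.77 higher at the 4 days. Its levels at day 15 were 13.5, 24.1 and 92.6 CPM. Among the other NF-kB genes of the list, Rela was 0.64, 0.47, 0.45 and 0.64 higher at the 4 days. Its medians were 69.7, 62.2, 61.9 and 73.6 CPM, against 45.4 CPM in uninjured muscle. The rest had no high point at day 15: Nfkb2 was 1.38, 1.61, 1.42 and 1.08 higher and Relb 1.09, 1.43, 1.50 and 0.97. Tnfaip3 was 1.71 higher at day 4 and 0.84 at day 15, and Nfkb1 was called at day 4 alone (0.60). Il6 had 0.203, 1.86 and 18.0 CPM at day 15, against 0, 0.0401 and 0.0886 CPM in uninjured muscle. It was called higher at all 4 days (4.07, 3.52, 2.56 and 5.73), as was Il1b (4.71, 4.16, 3.78 and 4.98). Tnf and Il1a were also called at all 4 days and rose least at day 15 (3.43, 2.74, 3.02 and 2.06, and 5.19, 4.81, 5.11 and 3.49). Ifng was not called at day 15. The relation of these genes to Cxcl1 was not tested. Of 8 proteases that cut or shed chemokines 6 were tested, and 6, 6, 6 and 5 were higher, beside the same shares of all genes. The same limit of the filter holds for these counts. Adam10, a sheddase of Cx3cl1 and Cxcl16, was 1.74 ± 0.16 higher at day 4, and Mmp12, which trims CXC chemokines in the mouse, had 22.6, 40.3 and 64.4 CPM at day 4 against 0, 0.0763 and 0.241 CPM in uninjured muscle.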

How the data were processed

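Raw counts per gene symbol, 1 table a library, were used as the authors deposited them. Per the submitters' processing notes, reads were aligned with STAR to mm39 and edgeR was among the tools. For the counting program, annotation and strand handling: not given in the sources used here. RNA was extracted and libraries were made by a commercial laboratory, per the labels' protocols. Low counts were mostly even (65.5 to 77.5% of counts of 1 to 20), so both reads of a pair appear to have been counted, and intervals and floors use read pairs.

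Genes were filtered with filterByExpr, scaled with TMM and fitted in edgeR 4.0.16 (R 4.3.3) with 1 quasi-likelihood model of 10 groups, both sexes weighted equally. The fit was tested on simulated data. DESeq2 1.42.0, other scalings, filters and sample sets were alternatives. Replicates differed beyond sampling noise (chi-square per degree of freedom at least 8.12). Exon lengths and overlapping genes came from GENCODE M21, promoter windows from RefSeq (GRCm38.p6), and no coordinates were converted.

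The members, gene lists and tests were chosen with earlier results of these data known. Named were the 4 called members with the largest rise and all that fell at each day, the 3 largest changes in each direction between days, and a listed set of ligands, at a mean of at least 0.5 CPM. Cxcl3, Cxcl11, Ccl21b, Ccl27a, Ccl28 and members without a test were added for completeness of their receptor class. Some genes of the pathway lists are not reported by name here.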

Additional observations from a re-analysis of the deposited data

Results flagged for a closer look

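In 22 of 119 groups of 6 libraries (a member at a time point, mean of at least 0.5 CPM), 1 library stood apart from the other 5 by a gap above Dixon's 95% critical value for 6 libraries. For normal values from 1 population, chance would give about 1 in 20, or 5.95 groups. The 6 libraries join both sexes, and CPM values need not be normal, so that figure is only a rough guide. Female day 11 replicate 2 stood apart in 5 ligands: Ccl4 at 6.61 CPM, Ccl5 at 67.1, Cxcl9 at 65.8, Cxcl10 at 89.0 and Xcl1 at 5.46. Female day 4 replicate 2 stood apart in 5: Ccl9 at 115 CPM, Cx3cl1 at 20.3, Pf4 at 272 and Ppbp at 12.0 were high, and Ccl5 at 1.52 was low. Female day 15 replicate 3 was high in Ccl2 at 20.4 CPM, Ccl7 at 32.0, Cxcl1 at 67.2 and Cxcl2 at 14.9.

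Male day 7 replicate 2 was high in Ccl2 at 19.7 CPM and Ccl9 at 55.1. Male uninjured replicate 1 was high in both platelet chemokines, Pf4 at 5.94 CPM and Ppbp at 5.32. The remaining libraries stood apart in 1 ligand each: Ccl27a at 32.8 CPM in the library labelled female day 11 replicate 3, Cxcl5 at 2.57 in male day 11 replicate 2, Cxcl9 at 6.51 in female uninjured replicate 3 and Cxcl10 at 39.7 in male day 4 replicate 3. What sets these libraries apart was not tested.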

How the results depend on the processing

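Of 3870 values of single ligands recomputed with 1 library left out, 3809 kept their direction and their side of the threshold, 39 lost a call, 12 gained one and 10 changed sign. Of 1268 under the other alternatives, 1223 kept both, 8 lost a call, 14 gained one and 23 changed sign. With library size alone the ligands called lower numbered 0 at day 4, 1 at day 7, 0 at day 11 and 0 at day 15. The changes that turned positive were Ccl11 at day 11 (0.12) and day 15 (0.98), Ccl25 at the 4 days (0.36, 0.60, 0.46 and 0.29), Ccl27a at day 4 (0.19), Cxcl11 at day 4 (1.24), Cxcl12 at days 7, 11 and 15 (0.77, 0.73 and 0.78), Cxcl14 at days 4, 11 and 15 (0.42, 0.23 and 0.74) and Ppbp at day 7 (0.93). This scaling moves every gene by the shift given above.

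Cxcl11 at day 4, near 0 and not called, was also positive with RLE scaling (0.015), no filter (0.00486), DESeq2 (0.011), only the groups compared (0.050), the replicate block (0.092), counts halved (0.014) and thinning (0.27), and Ccl11 at day 15 with thinning (0.030). Leaving out 1 library gave -0.52 to 2.92 for Cxcl11 at day 4, -0.14 to 0.039 for Ccl11 at day 15, -0.0063 to 0.14 for Cxcl12 at day 4, -1.71 to 2.92 for Cxcl13 at day 15 and -0.45 to 0.47 for Ppbp at day 7. With only the groups compared, 2 ligands were lower at day 15, and 1 higher and 0 lower between days 15 and 11. DESeq2 called 3 lower between days 15 and 11, 1 lower in uninjured females and 3 in the joint test of sex. Without the library whose sex genes go against its label, 6 were lower between days 15 and 11. Leaving out each library gave 1 to 2 lower at day 15, and 1 to 3 higher and 0 to 6 lower between days 15 and 11. The causes were not tested.

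Samples with the same replicate number did not deviate together (mean r 0.0125 over 135 pairs, -0.00633 over 270 pairs with different numbers), and only 12 of 30 correlated best with a library of their own number. With the replicate block 25 ligands were higher at day 15 and 13 lower between days 15 and 4. Thinned to the smallest total, Ccl17 lost its calls at days 4 and 7 and Cxcl10 at day 15, while Ccl24 at day 7 and Cxcl11 at day 11 gained one.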
